A study of Homo sapiens with 4 samples.

Results

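UPF2, EXOSC10 and ZC3H18 are host genes whose protein products act in RNA decay, and the circRNAs of these 3 genes were followed through every library of AGS cells with and without overexpressed DDX5. The genes were chosen by measured values, since each hosts a circRNA that the study listed as higher in DDX5-overexpressing cells. Every level of their circRNAs in DDX5 against NC is therefore a description and carries no test. The count table lists 17 circRNAs of the 3 genes, out of 11760 circRNAs of 4410 host genes. UPF2 has 3 of the 17, EXOSC10 has 4 and ZC3H18 has 10. Reads were present for 13 of the 17, and 6 had a total of at least 10 reads, the minimum for the fits described further on.

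AGS cells are an established line from a human gastric adenocarcinoma. Cells of the group called DDX5 were transfected with FLAG-DDX5, a tagged RNA helicase cloned behind a CMV promoter, and cells of the group called NC received the FLAG-tagged empty vector, so that transfection and vector are common to both. For circRNA-seq, rRNA was depleted and linear RNA was removed with RNase R, which leaves closed circles, and 2 libraries were made per group. The libraries are called biological replicates but are not said to come from separate cultures, so every p-value measures only the spread between these libraries. A read counts when it crosses a back-splice junction, where the end of a downstream exon is joined to the start of an upstream exon. The RPM of a circRNA expresses its reads relative to all back-splice reads of its own library, and fewer cells with a circle and less of it per cell cannot be told apart in such bulk RNA. The libraries held between 60178 and 97961 back-splice reads, and the weight of 1 read ranged from 10.2 to 16.6 RPM. No count equalled 1, since the smallest count above 0 was 2, and a library listed at 0 may still have held up to 3 reads, which is 30.6 to 49.9 RPM depending on the library. Intervals and limits cover counting error only. Between 24.1% and 35.7% of the circRNAs of a library were seen in no other library. Of 11 epithelial and gastric markers, EPCAM and CDH1 had circRNA reads, with between 66 and 88 reads per library, and none of 9 stromal and immune markers was a host gene. DDX5 is listed as the host of no circRNA, so its overexpression could not be checked in these counts.

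Nonsense-mediated decay removes mRNAs with a premature stop codon, and UPF2 is the adaptor that links the helicase UPF1 to UPF3 on the exon junction complex. The RNA exosome digests RNA from the 3′ end, and EXOSC10, the human relative of yeast Rrp6, is its 3′ to 5′ exonuclease in the nucleus and nucleolus. ZC3H18 is a zinc finger protein that bridges the nuclear cap-binding complex and the NEXT complex, which hands nuclear RNAs to the exosome. A circRNA of such a gene is made from exons of its pre-mRNA, and its level is not the level of the mRNA or of the protein.

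All 17 circRNAs fitted the exon structure of their gene. Each genomic span matched 1 pair of exon edges of the host transcript in GENCODE 29, to the base, and no other pair. Back-splice reads do not show which inner exons a circle holds, so spliced lengths assume every exon of that transcript between the edges. The coordinates are given as in the deposited table. They lie a constant 41999 bases from the GRCh38 exon edges in UPF2, 60057 bases in EXOSC10 and 66408 bases in ZC3H18, so they are not coordinates of GRCh38, although the submitters' processing notes name hg38. Every circle lies within coding exons, which hold no stop codon in the frame of the host mRNA. Over 1 lap in that frame only codons at the back-splice junction could be a stop, and none was. Later laps were not examined. The leading circle of a gene is here the one for which the gene was chosen, which need not have the most reads. Over all libraries it had 47 reads in EXOSC10, where exons 17 to 21 had 54. In ZC3H18 it had 48, where exon 8 on its own had 66. The leading circle of UPF2 spans chromosome 10 from 12039671 to 12056183 on the minus strand and joins exons 4 to 8 of 22, with 699 nt when spliced. The leading circle of EXOSC10 spans chromosome 1 from 11133991 to 11137005 on the minus strand and joins exons 17 to 19 of 25, with 278 nt. The leading circle of ZC3H18 spans chromosome 16 from 88675342 to 88677944 on the plus strand and joins exons 7 and 8 of 18, with 387 nt. Each of these shares an exon edge with another circle of the same gene that had reads in NC, so the pairs are printed as their back-splice junctions. The lower-case letters are the last 30 bases of the downstream exon and the capitals the first 30 bases of the upstream exon it is joined to, 5′ to 3′ on the strand of the gene, from GENCODE 29 transcripts on GRCh38.
UPF2 exon 8 to exon 4: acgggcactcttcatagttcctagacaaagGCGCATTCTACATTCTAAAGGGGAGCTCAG
UPF2 exon 8 to exon 5: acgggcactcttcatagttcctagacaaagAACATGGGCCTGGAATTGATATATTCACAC
EXOSC10 exon 19 to exon 17: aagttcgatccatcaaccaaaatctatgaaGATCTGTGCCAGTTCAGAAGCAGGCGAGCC
EXOSC10 exon 21 to exon 17: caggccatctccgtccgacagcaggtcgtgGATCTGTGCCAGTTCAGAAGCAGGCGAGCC
ZC3H18 exon 8 to exon 7: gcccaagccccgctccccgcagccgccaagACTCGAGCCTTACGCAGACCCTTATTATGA
ZC3H18 exon 8 to exon 8: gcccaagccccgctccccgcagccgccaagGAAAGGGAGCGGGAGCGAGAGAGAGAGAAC

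The UPF2 and ZC3H18 pairs end at the same donor, so that the lower-case run is shared and the capitals differ. The EXOSC10 pair begins at the same acceptor, and there the capitals are shared and the lower-case run differs. The exon that sets the leading circle apart is 161 nt of exon 4 in UPF2 and 118 nt of exon 7 in ZC3H18. In EXOSC10 the smaller circle lacks exons 20 and 21 and closes on exon 19, a 75-nt exon that 1 of 2 CCDS transcripts of the gene holds. These sequences are printed whole below, with exon 19 in capitals within the EXOSC10 circle.
UPF2 exon 4 (GRCh38, chr10:12014024-12014184, minus strand): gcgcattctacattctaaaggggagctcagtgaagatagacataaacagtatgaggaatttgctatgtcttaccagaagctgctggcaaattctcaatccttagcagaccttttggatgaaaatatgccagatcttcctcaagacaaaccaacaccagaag
ZC3H18 exon 7 (GRCh38, chr16:88608934-88609051, plus strand): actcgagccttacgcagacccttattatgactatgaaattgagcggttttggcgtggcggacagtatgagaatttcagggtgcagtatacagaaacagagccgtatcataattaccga
EXOSC10 exons 17 to 19 (GRCh38, chr1:11073934-11076948, minus strand, introns left out): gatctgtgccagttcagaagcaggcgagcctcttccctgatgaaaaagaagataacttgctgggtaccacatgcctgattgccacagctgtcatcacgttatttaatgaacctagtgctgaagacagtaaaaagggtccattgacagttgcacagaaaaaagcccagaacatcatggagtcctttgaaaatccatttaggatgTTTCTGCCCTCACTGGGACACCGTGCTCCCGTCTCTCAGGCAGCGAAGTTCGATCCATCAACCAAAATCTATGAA

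**Figure D1:**
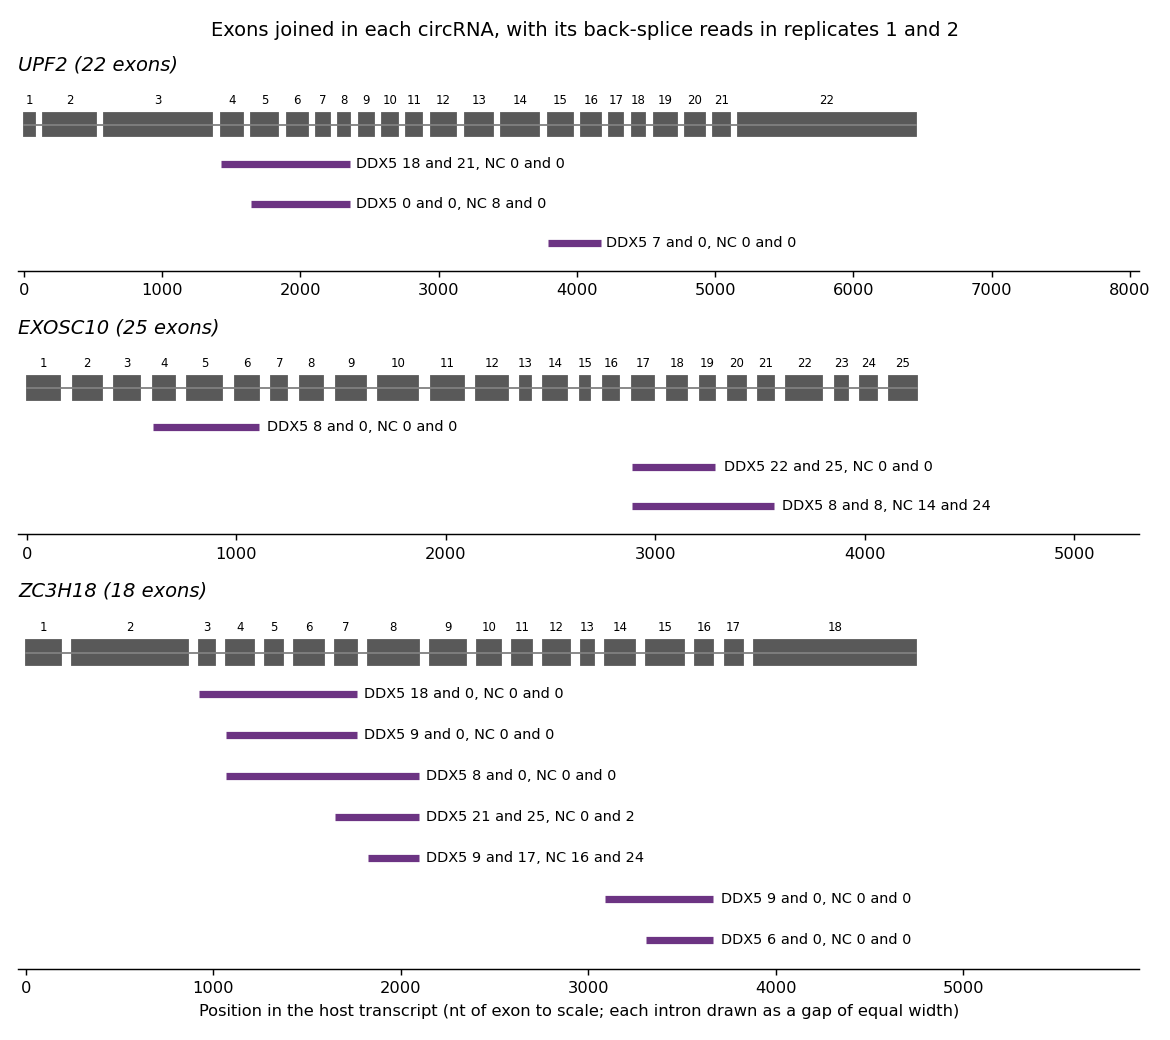
Map of the exons joined in each circRNA with reads. Grey boxes are the exons of the host transcript in nt to scale, introns are gaps of equal width, and each bar is 1 circRNA with its back-splice reads in both DDX5 and both NC libraries. The leading circles (18 and 21 reads in DDX5 for UPF2, 22 and 25 for EXOSC10, 21 and 25 for ZC3H18) share an edge with a circle that had reads in NC.

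The leading circle of UPF2, exons 4 to 8, was read in both DDX5 libraries and in neither NC library. It had 18 reads in DDX5 replicate 1 and 21 in replicate 2, or 229.7 and 349 RPM, against 0 reads in both NC libraries. Its DDX5 mean of 289 ± 84.4 RPM (SD, n = 2) was 16.5-fold the 17.5 RPM of 3 reads over both NC libraries. This ratio bounds the fold from the NC side alone and leaves out the counting error of the DDX5 reads. It fell to 9.45-fold without NC replicate 1 and 7.06-fold without NC replicate 2, since less depth then bounds the NC level. The circle of exons 5 to 8 (12039671 to 12046726, 538 nt) uses the same exon 8 and leaves out exon 4, and it showed the opposite presence, with 8 reads or 109 RPM in NC replicate 1 and 0 reads in the other 3 libraries. The circle of exons 15 and 16 (11990368 to 11994248, 324 nt) had 7 reads or 89.3 RPM in DDX5 replicate 1 and 0 elsewhere. Both of these minor circles rest on 1 library each.

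The reads of all UPF2 circles came to 25 and 21 in DDX5 and to 8 and 0 in NC. As host sums these are 319 and 349 RPM against 109 and 0 RPM, a mean of 334 ± 21.2 against 54.7 ± 77.3 RPM (SD, n = 2), and the groups did not overlap. The ratio of the means was 6.11, with an exact binomial interval on the pooled reads from 3.32 to 17.4 at 95% confidence, and it equals a log2 difference of 2.61. Without exons 4 to 8 the sums were 89.3 and 0 RPM in DDX5 and 109 and 0 RPM in NC, and the groups overlapped. Exons 4 to 8 held 72.0% of the UPF2 reads in DDX5 replicate 1 (exact Clopper-Pearson interval 50.6% to 87.9%) and 100% in replicate 2 (83.9% to 100%). In NC replicate 1 it held 0 of 8 reads, which by the same exact interval allows a share of up to 36.9%, and NC replicate 2 had no UPF2 read. With so few reads the makeup of the UPF2 circles in NC could not be resolved beyond that limit. UPF2 stood at rank 1149 of 3532 host genes with reads when ordered by mean RPM.

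In EXOSC10 the groups differed in which circle that begins at exon 17 held most of the reads. The gene was chosen for the circle of exons 17 to 19, so this difference follows in part from that choice. Exons 17 to 19 had 22 and 25 reads in DDX5, or 281 and 415 RPM, and 0 reads in both NC libraries. Its mean of 348 ± 95.3 RPM (SD, n = 2) was 19.9-fold that same limit of 17.5 RPM. The ratio was 11.4-fold without NC replicate 1 and 8.49-fold without NC replicate 2, again bounded from the NC side alone. Exons 17 to 21 (11130957 to 11137005, 437 nt with exon 19) had reads in all 4 libraries, 8 and 8 in DDX5 and 14 and 24 in NC. In RPM these are 102.1 and 133 against 191 and 245, so both DDX5 libraries lay below both NC libraries. The means were 118 ± 21.8 RPM in DDX5 and 218 ± 38.0 RPM in NC, a ratio of 0.539 with a counting interval from 0.271 to 0.955. The longer circle was thus the lower one of the pair in DDX5 and held every EXOSC10 read of NC.

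The share of EXOSC10 reads on exons 17 to 19 was 57.9% in DDX5 replicate 1 (40.8% to 73.7%) and 75.8% in replicate 2 (57.7% to 88.9%). In NC it was 0 of 14 and 0 of 24 reads, which by the same exact interval allow shares of up to 23.2% and 14.2%. The share on exons 17 to 21 was 21.1% and 24.2% in DDX5 and 100% in both NC libraries. These shares depend on the circle for which the gene was chosen and are a description only. Reads of every circle that begins at exon 17 were 30 and 33 in DDX5 and 14 and 24 in NC, or 383 and 548 RPM against 191 and 245 RPM. These sums include the reads of exons 17 to 19, so they are no second observation. The circle of exons 4 to 6 (11150611 to 11151654, 386 nt) had 8 reads or 102.1 RPM in DDX5 replicate 1 and 0 elsewhere, and the circle of exons 11 and 12 (11140821 to 11141295) had no read in any library.

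The EXOSC10 host sum was 38 and 33 reads in DDX5 and 14 and 24 in NC. In RPM the sums were 485 and 548 against 191 and 245, with means of 517 ± 44.9 and 218 ± 37.9 RPM (SD, n = 2), and the groups did not overlap. The ratio of the means was 2.37 (counting interval 1.54 to 3.52), a log2 difference of 1.24. Without the circle of exons 17 to 19 the sums were 204 and 133 RPM in DDX5 and 191 and 245 RPM in NC, and the groups overlapped. EXOSC10 stood at rank 694 of the 3532 host genes.

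ZC3H18 had the most circles and the most reads of the 3 genes. Its leading circle, exons 7 and 8, had 21 and 25 reads in DDX5, or 268 and 415 RPM, and 0 and 2 reads in NC, or 0 and 20.4 RPM. The means were 342 ± 104 and 10.2 ± 14.4 RPM (SD, n = 2), a ratio of 33.5 with a wide counting interval from 7.43 to 242. The NC side of this ratio rests on 2 reads in NC replicate 2. The ratio was 16.7 without NC replicate 1 and 8.33 without NC replicate 2, the latter bounded from the NC side alone. Exon 8 on its own (88677676 to 88677944, 269 nt) also forms a circle, whose single exon is spliced end to start. It had 9 and 17 reads in DDX5 and 16 and 24 in NC, or 115 and 282 against 219 and 245 RPM. DDX5 replicate 2 was the highest of the 4 libraries for this circle and DDX5 replicate 1 the lowest, so the groups overlapped. Its means were 199 ± 119 and 232 ± 18.6 RPM, a ratio of 0.857 with a counting interval from 0.470 to 1.35. That interval leaves out the spread between the DDX5 libraries.

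Another 5 circles of ZC3H18 had reads in DDX5 replicate 1 and in no other library. Exons 3 to 7 (88653008 to 88675459) had 18 reads or 229.7 RPM, the highest of the 5. Exons 4 to 7 (88664586 to 88675459) and exons 14 to 16 (88694030 to 88695262) had 9 reads each, exons 4 to 8 (88664586 to 88677944) had 8 and exons 15 and 16 (88694328 to 88695262) had 6. In DDX5 replicate 2 the count of 0 allows up to 49.9 RPM for each, so these circles have no second library behind them. The circles of exons 3 to 8, 4 to 6 and 5 to 7 are listed with 0 reads in all 4 libraries. Counting the circles with reads, ZC3H18 showed 7 in DDX5 replicate 1, 2 in DDX5 replicate 2, 1 in NC replicate 1 and 2 in NC replicate 2.

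The ZC3H18 host sum was 80 and 42 reads in DDX5 and 16 and 26 in NC, or 1021 and 698 against 219 and 265 RPM. The means were 859 ± 228 and 242 ± 33.1 RPM (SD, n = 2), a ratio of 3.55 (counting interval 2.51 to 5.22) and a log2 difference of 1.83, and the groups did not overlap. Without exons 7 and 8 the sums were 753 and 282 RPM in DDX5 and 219 and 245 RPM in NC. The highest of these sums was that of the library that holds the 5 circles seen nowhere else. The circles that end at exon 8 together had 38 and 42 reads in DDX5 and 16 and 26 in NC, or 485 and 698 against 219 and 265 RPM. Both DDX5 libraries lay above both NC libraries for this shared splice donor. Its reads include those of the leading circle, for which the gene was chosen, so it is no second observation. Exons 7 and 8 held 26.3% of the ZC3H18 reads in DDX5 replicate 1 (17.04% to 37.3%) and 59.5% in replicate 2 (43.3% to 74.4%). In NC it held 0 of 16 reads, which by the same exact interval allows up to 20.6%, and 7.69% of 26 reads (0.946% to 25.1%). The interval of DDX5 replicate 1 overlapped these. Exon 8 on its own held 11.3% and 40.5% in DDX5 and 100% and 92.3% in NC. It was the main circle of both NC libraries, and in both DDX5 libraries exons 7 and 8 had more reads than it. ZC3H18 stood at rank 442 of the 3532 host genes.

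**Figure D2:**
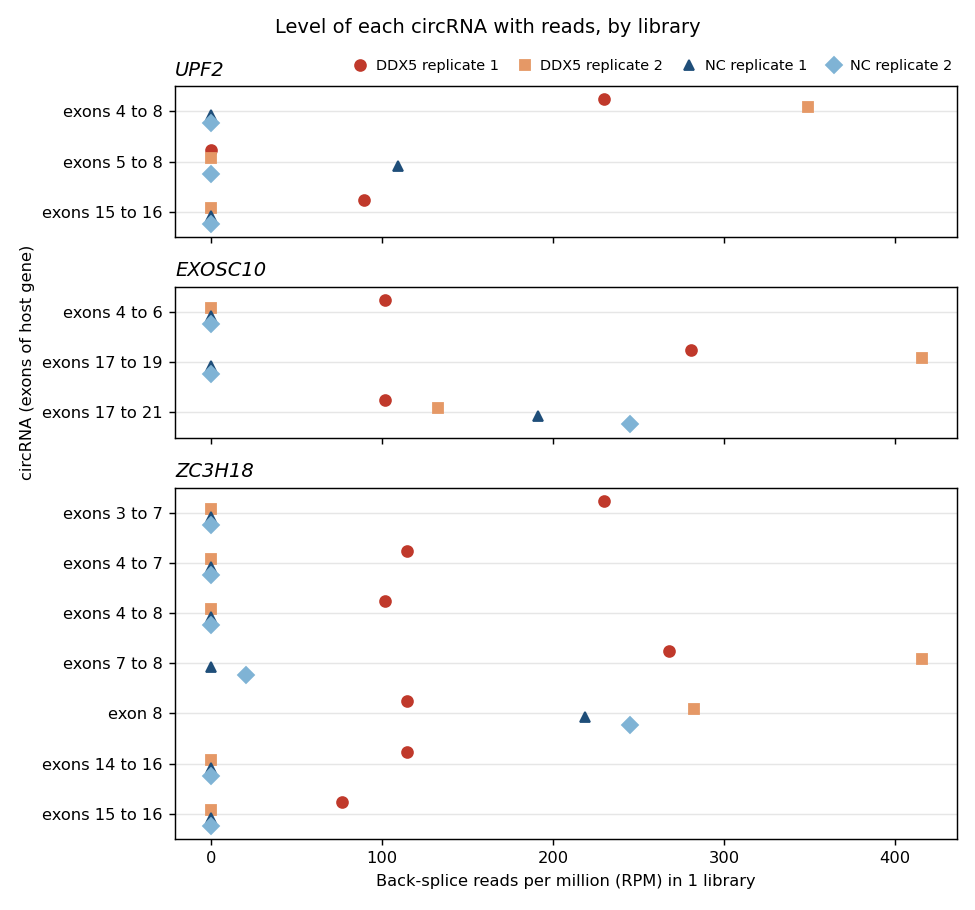
Level of each circRNA with reads in RPM (x axis) by library, with 1 line per circle, named by its exons, and 1 symbol per library. The leading circles lie between 229.7 and 415 RPM in the DDX5 libraries and between 0 and 20.4 RPM in the NC libraries, while most other circles have reads in 1 library alone.

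**Figure D3:**
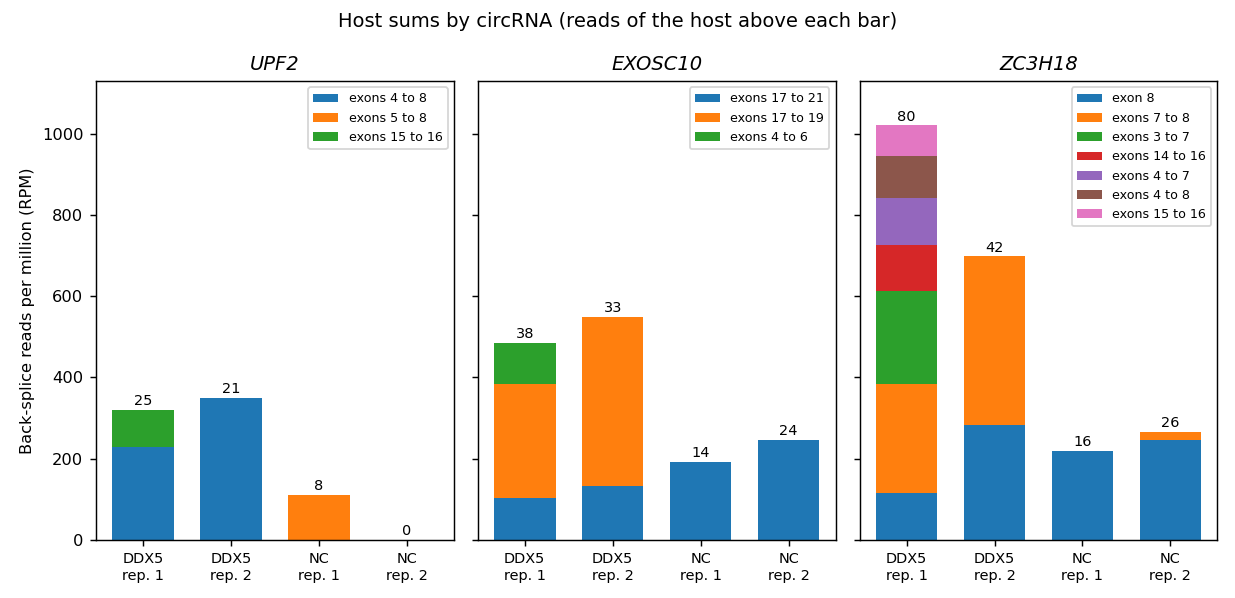
Sum of back-splice RPM over all circles of a host gene (y axis, from 0) in each library, stacked by circle, with the reads of the host above each bar. In EXOSC10 the part for exons 17 to 21 is smaller in both DDX5 libraries than in both NC libraries, and the ZC3H18 bar of DDX5 replicate 1 holds 5 circles that no other library holds.

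Over the 3 genes together, the reads were 143 and 96 in DDX5 and 38 and 50 in NC, or 1825 and 1595 against 519 and 510.4 RPM. Of the 6 circles with at least 10 reads, 3 had both DDX5 libraries above both NC libraries and 1, exons 17 to 21 of EXOSC10, had both below. Over all 4671 circRNAs with at least 10 reads, both DDX5 libraries lay above both NC libraries in 10.8% and below in 12.5%. All 3 host sums did not overlap, with DDX5 higher, beside 13.2% of the 2703 host genes with at least 10 reads. Since the genes were picked for a circle that is higher in DDX5, nothing is read from these counts. Of the 13 circles with reads, 7 were read in DDX5 replicate 1 alone, and 5 of the 7 belong to ZC3H18. Of all 7587 circRNAs with reads, 14.2% were read in that library alone. Circles of 1 gene share their host transcript and are not independent of each other.

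The leading circles have little in common in size. Beside the circRNAs with reads that could be placed on exons, 85.9% were shorter when spliced than the UPF2 circle, 19.7% were shorter than the EXOSC10 circle and 50.9% were shorter than the ZC3H18 circle. The median of all was 382 nt. The intron upstream of the first exon was 14560 nt in UPF2 and 8985 nt in ZC3H18, against a median of 6214 nt. In EXOSC10 it was 416 nt, and 1.8% of the circRNAs had a shorter one. The intron downstream of the last exon was 18506 nt in UPF2, 1762 nt in EXOSC10 and 10660 nt in ZC3H18, against a median of 5084 nt. The spliced length is a multiple of 3 in the leading circles of UPF2 and ZC3H18 and not in that of EXOSC10, as it is in 37.7% of 7230 placed circRNAs with reads.

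A shared edge with a circle of the other group was common in the whole table. Of the 176 circRNAs read in both DDX5 libraries and in no NC library, 69 or 39.2% shared an exon edge with a circle that had reads in NC. In the reverse direction, 104 of 308 circRNAs, or 33.8%, read in both NC libraries and in no DDX5 library shared one with a circle that had reads in DDX5. Of 10 circRNAs read in DDX5 alone with at least the 39 reads of the UPF2 circle, 4 did. These include the circles of UPF2 and EXOSC10.

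To set the 3 genes beside the rest of their pathways, 122 symbols of other RNA decay factors were listed in 7 groups. Of these, 57 are host genes in the table, 51 had reads, 20 had reads in all 4 libraries and 46 had at least 10 reads. None of the 46 host sums changed in edgeR's quasi-likelihood test at an adjusted p under 0.05, beside 0% of the 2703 host genes. At an unadjusted p under 0.05 the count was also 0 of 46, beside 2.52% of all host genes, and DESeq2 gave 0 at both levels. Both DDX5 libraries lay above both NC libraries in 3 of the 46, XRN2, CNOT10 and SMG1, beside 13.2% of host genes, and below in 6, beside 15.8%. These 6 include the SKI-complex-associated HBS1L, the exosome subunit EXOSC1 and the cytoplasmic 3′ exonuclease DIS3L2. The median log2 difference was −0.01 over the 46, and turned to 0.06 with DESeq2 size factors, beside −0.13 and −0.06 over all host genes tested. Of 77 circRNAs of these factors with at least 10 reads, edgeR's quasi-likelihood test called 0 at an adjusted p under 0.05, beside 0.0856% of all circRNAs, and 0 at an unadjusted p under 0.05, beside 2.65% of all. DESeq2 also gave 0 at both levels. Both DDX5 libraries lay above both NC libraries in 4 of the 77, beside 10.8% of all. Their median log2 difference was −0.09, and turned to 0.09 with DESeq2 size factors, beside −0.27 and −0.13 over all circRNAs tested.

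The decay factor with the most circRNA reads was DHX34, an RNA helicase of nonsense-mediated decay. It had 388 and 324 reads in DDX5 and 391 and 458 in NC, a mean of 5167 ± 307 against 5009 ± 472 RPM (SD, n = 2), and its groups overlapped. LSM14A, a P-body protein of the decapping machinery, had 1375 ± 275 against 1034.5 ± 226 RPM. XRN2, the nuclear 5′ to 3′ exonuclease, had 1109 ± 359 against 709 ± 79.2 RPM, with 855 and 1363 RPM in DDX5 above 765 and 653 RPM in NC. PAN3, the adaptor of the PAN2 deadenylase, had 609 ± 438 against 938 ± 31.1 RPM, and DDX5 replicate 2 was low with 299 RPM against 919 RPM in replicate 1. In none of these 4 did the difference pass the test, adjusted or not.

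By group, with TMM factors and beside the −0.13 of all host genes, the median log2 difference was 0.35 over 8 tested factors of nonsense-mediated decay and the exon junction complex, 0.43 over 6 nuclear exosome adaptors and cap-binding proteins, and −0.38 over 4 exosome subunits and ribonucleases. In these groups 3, 1 and 2 tested factors, in that order, had reads in all 4 libraries. UPF1 and CASC3, with the highest values of the first group, were each read in 1 DDX5 library alone. Values of the adaptors ran from −6.76 in PAPD7 to 5.64 in NCBP3, so these medians are unstable. The median was −0.08 over 8 factors of decapping and 5′ to 3′ decay, −0.65 over 9 of deadenylation and 0.11 over 10 that act on particular mRNAs. The SKI complex list had 1 tested host, HBS1L, at −1.08. UPF1, the helicase that UPF2 binds and a gene singled out after its values were seen, had 22 reads in DDX5 replicate 1 and 0 in the other 3 libraries. Of the SMG factors that act with UPF1, the kinase gene SMG1 had 17 and 7 reads in DDX5 and 8 and 10 in NC. The smallest unadjusted p of edgeR's quasi-likelihood test among the 46 host sums was 0.0620, for G3BP1, with 17 and 7 reads in DDX5 and 52 and 46 in NC.

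**Figure D4:**
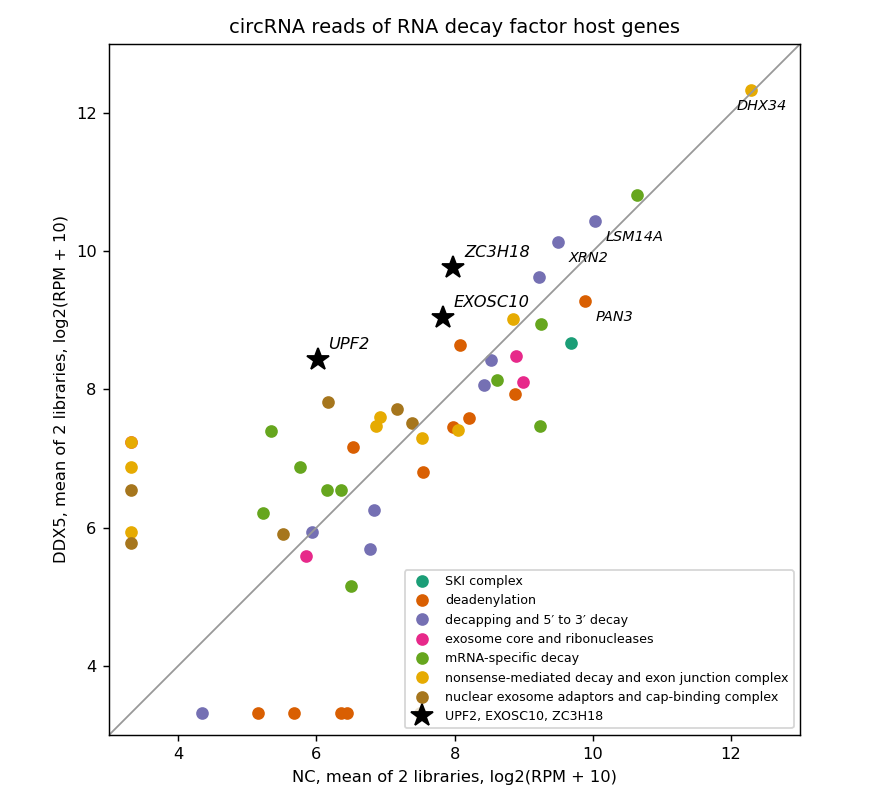
Host sums of RNA decay factors as the log2 of the mean RPM + 10 in NC (x axis) and in DDX5 (y axis), n = 2 libraries each. Points are the 51 other decay factors with reads, coloured by group, stars are UPF2, EXOSC10 and ZC3H18, and the line marks equal levels. The stars lie above the line because the genes were chosen for a circle higher in DDX5, and DHX34 lies close to it.

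Host genes with the pattern most like each of the 3 were found by the Euclidean distance of log2(RPM + 10) over the 4 libraries, among 2702 host genes with at least 10 reads. For UPF2 the nearest were STK4, GOLM1 and NCAPG, at distances of 0.635, 0.783 and 0.854. STK4 had 21, 14, 9 and 0 reads in DDX5 replicates 1 and 2 and NC replicates 1 and 2. For EXOSC10 the nearest were MAP4, UGGT2 and ELF2, at 0.339, 0.437 and 0.439. MAP4 had 38, 35, 11 and 24 reads in the same order, beside 38, 33, 14 and 24 in EXOSC10. For ZC3H18 the nearest were UGGT1, LRWD1 and PDIA3, at 0.780, 0.823 and 0.827. UGGT1 had 55, 46, 22 and 33 reads in the same order. None of these near genes is on the list of decay factors.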

How the data were processed

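Back-splice reads were analysed in 4 circRNA-seq libraries of AGS cells, 2 DDX5 and 2 NC, grouped by the sample labels. The authors deposited an unnormalized count for each back-splice junction and library. In a second deposited table they had scaled these counts to RPM, and a recalculation differed by at most 0.00499 RPM. CIRCexplorer2 and CIRI2 called the circRNAs. BWA and hg38 come from the submitters' processing notes. Not given in the sources used here are their versions and how both lists of calls were merged.

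The members and lists were chosen with earlier results of these data known. Every circRNA of the 3 host genes is described. Of the other decay factors, the 5 host genes with the highest mean RPM are named, with any at an unadjusted p under 0.05, which none reached. The values of 1 of these are not reported here. Others named were chosen after their values were seen. CircRNAs and sums per host gene with a total of at least 10 reads went into edgeR's quasi-likelihood test (edgeR 4.0.16 under R 4.3.3, TMM factors, DDX5 against NC, two-sided, Benjamini-Hochberg adjustment over all features, threshold 0.05), which was tested on simulated data. Fold differences of the 3 genes are ratios of mean RPM, with exact binomial intervals on pooled reads at 95% confidence. A group at 0 was set to 3 reads over the group. Such bounds leave out the counting error of the group with reads and the absence of counts of 1. DESeq2 1.42.0, other scalings, all features with a read, a replicate block and the omission of each library in turn were the alternatives. Exon structures and sequences come from GENCODE 29 transcripts on GRCh38, with placement also tried within 2 bases. Python 3.11.15 and pandas 2.3.3 handled the tables.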

Additional observations from a re-analysis of the deposited data

How the results depend on the processing

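The 3 host sums, of genes chosen for a circle higher in DDX5, stayed higher with TMM factors or circles of at least 10 reads. An alternative chosen after seeing the data left out the circle for which each gene was listed, and the log2 difference then turned to −0.29 in UPF2 and −0.37 in EXOSC10 and was 1.16 in ZC3H18. The ZC3H18 value leans on the 5 circles read in DDX5 replicate 1 alone. Its remaining sums were 753 and 282 RPM in DDX5 replicates 1 and 2, against 219 and 245 RPM in NC. Leaving out 1 library cannot reverse sums without overlap. It gave log2 differences of 1.61 (without NC replicate 2) to 3.45 for UPF2, 1.08 to 1.43 for EXOSC10 and 1.53 to 2.08 for ZC3H18. For UPF2 the value without NC replicate 1 (3.45), and that for circles with at least 10 reads (4.04), are bounded from the NC side alone, since NC then has no read. The share of host reads on the leading circle in DDX5, averaged over libraries, was 86.0% in UPF2 and lay between 72.0% and 100% when 1 library was left out. It was 66.8% in EXOSC10 (57.9% to 75.8%) and 42.9% in ZC3H18 (26.3% to 59.5%). Allowing spans to differ by 2 bases left 16 of 17 circles with 1 placement.

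The counts over all features were less stable. At the adjusted threshold edgeR called 4 of 4671 circRNAs, all higher in DDX5, DESeq2 called 1, and the fits without 1 library called between 0 (without DDX5 replicate 1) and 33 (without NC replicate 1), with 7 without DDX5 replicate 2, of which 6 were lower in DDX5, and 19 without NC replicate 2. At an unadjusted p under 0.05 edgeR called 124. For host sums the adjusted count was 0 with edgeR, 1 with DESeq2, 2 with at least 1 read, and between 0 and 12 without 1 library, the highest without NC replicate 1. The unadjusted count was 68 with edgeR, 106 with DESeq2 and between 86 and 145 without 1 library, the highest without DDX5 replicate 1. For other decay factors no circRNA or host sum passed the adjusted threshold under any alternative. Unadjusted, their circRNA count was 0, then 1 with at least 1 read and between 1 and 4 without 1 library, and their host count was between 0 and 3 without 1 library, both highest without DDX5 replicate 1. Where 1 library was left in a group, its spread was taken from the other group. The causes were not tested.

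Deviations of same-numbered replicates correlated at −0.03 over 1011 circRNAs read in all 4. Counting error can hide pairing, so it is not excluded. With the replicate block, edgeR called 13 circRNAs and 3 host sums at the adjusted threshold, and 75 circRNAs at an unadjusted p under 0.05. The median log2 difference of all tested circRNAs was −0.27 with TMM factors, −0.13 with DESeq2 size factors and −0.16 with total reads, and the share of unadjusted circRNA calls that were higher in DDX5 was 48.4%, 60.8% and 58.1%. With TMM factors that share turned with the library left out. It fell below 48.4% on omission of either DDX5 library, lowest at 12.4% for replicate 1, and rose above it on omission of either NC library, highest at 78.1% for replicate 1. The median of the 77 decay factor circRNAs moved likewise, from −0.09 to 0.09 and 0.04, and that of the 46 host sums from −0.01 to 0.06 and 0.02.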
